A study of Homo sapiens with 8 samples.

Results

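The aminoacyl-tRNA synthetases and the scaffold proteins that bind some of them were followed as knockouts in a pooled CRISPR screen. The set was made of every row of the guide count table whose gene name was on a list of 39 symbols, out of 18052 genes in the table. It held 20 cytosolic enzymes, 16 mitochondrial enzymes, whose symbols end in 2, and 3 scaffold proteins. The older symbols of the table are kept here, and a RefSeq symbol was found for all 39 (KARS is now KARS1, for example).

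PC9 is a non-small cell lung cancer line with an activating EGFR deletion. Its cells expressed the Cas9 nuclease and carried TKOv3, a genome-wide library with up to 4 single guide RNAs for a gene, so that reads of a guide count the cells that carry its knockout. The screen had 4 groups of 2 libraries each, namely a culture held in 10 µM erlotinib for 72 h, one held in 0.1 µM osimertinib for 72 h, one given only the DMSO vehicle over the same 72 h (untreated), and the starting pool taken when drug was added (T0). Both drugs inhibit the EGFR kinase, at doses that differ between them. All groups share the Cas9 background and the guide pool, and all come from 1 cell line. Per the methods, the untreated culture was passaged 1 day into treatment, and live cells were harvested at the end. Replicates are called biological by the study, and per the labels the infection was done in duplicate. How a replicate number ties a library to an infection is not given in the sources used here, so the spread between libraries of a group may be partly technical. The adjusted p-values printed for genes measure the spread between guides instead.

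Aminoacyl-tRNA synthetases load each amino acid onto its tRNA before the ribosome can use it. Human cells have one set of these enzymes for the cytosol and another, also encoded in the nucleus, for the small protein synthesis apparatus of mitochondria. KARS and GARS are exceptions, since each makes both a cytosolic and a mitochondrial form from a single gene. Some cytosolic enzymes assemble in the multisynthetase complex, which is held together by the scaffold proteins AIMP1, AIMP2 and EEF1E1. Uncharged tRNA is sensed by the kinase GCN2, encoded by EIF2AK4, with its partner GCN1 (GCN1L1 in the table).

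Libraries held 32096281 and 32673742 reads under erlotinib, 36636477 and 38116068 under osimertinib, 34894824 and 37237495 in untreated cells, and 36940586 and 39200466 at T0. The 39 genes had 156 guides, of which 151 passed the filter on low counts, so that 34 genes kept 4 guides and 5 genes (GARS, HARS, MARS, YARS and HARS2) kept 3. All 39 could therefore be tested. Gene values are log2 fold changes (L2FC), the median over a gene's guides minus the median of guides that target nothing, given ± the SD between guides with n guides. A gene was called higher or lower at an adjusted empirical p under 0.05, which sets its value against draws of non-targeting guides. In untreated cells against T0 the median non-targeting guide stood at 0.18 on the log2 scale before this correction and the median targeting guide at 0.01, so most genes lie below 0 against T0. For that reason calls against T0 are also given with draws from all targeting guides, a scale on which the average knockout is 0.

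Untreated cells were set against T0 to see which synthetases PC9 cells need to grow. Knockouts of all 20 cytosolic enzymes became rarer, with a median L2FC of -1.06 ± 0.32 (SD between genes, n = 20 genes), which is 47.8% of their T0 abundance. Knockouts of the 16 mitochondrial enzymes had a median of -0.23 ± 0.11 (n = 16 genes), or 85.5% of T0, and the 3 scaffold proteins had a median of -0.14. The median of all 17761 genes tested was -0.17. Calls alone do not separate these classes well, because 66.0% of all genes were called lower. All 20 cytosolic enzymes, 14 of the 16 mitochondrial enzymes and 2 of the 3 scaffold proteins were called lower by this rule. With draws from all targeting guides, which called 3.06% of all genes lower, 12 cytosolic enzymes were called and no mitochondrial enzyme or scaffold protein was. By limma on a table of gene by library, where 46.3% of all genes were lower, the counts were 20, 11 and 1. Among the lowest 5% of all genes (889 genes) there were 17 of the 20 cytosolic enzymes and no other member.

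**Figure D1:**
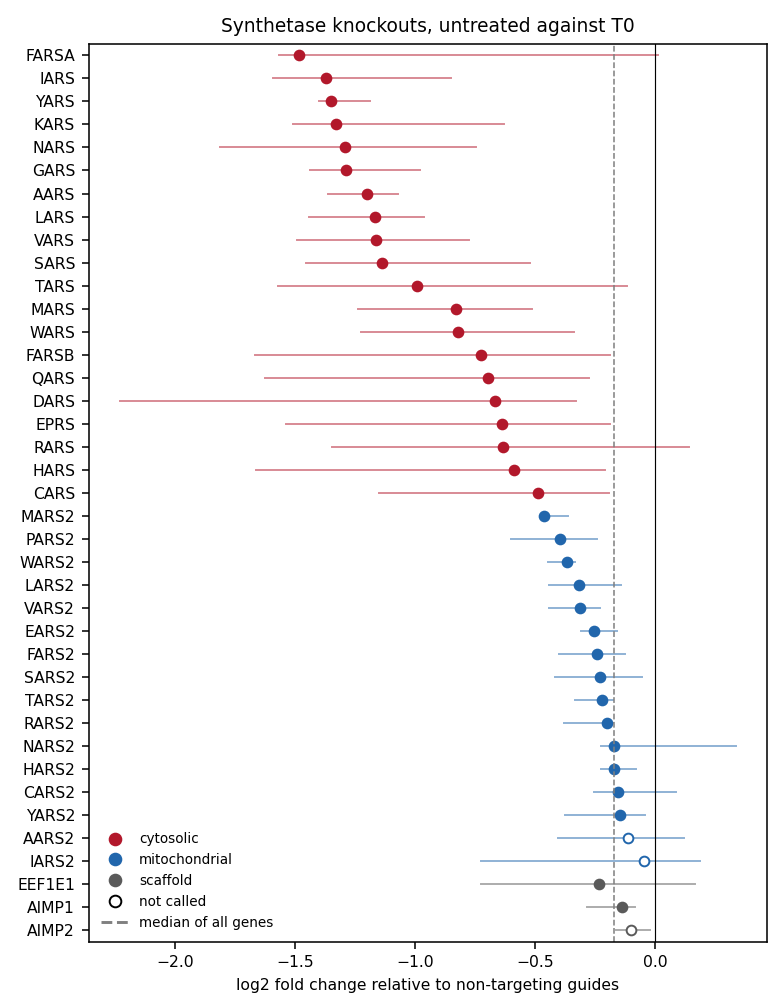
Log2 fold change of each knockout in untreated cells against T0 (x axis, relative to non-targeting guides), one row a gene, grouped by class. Points are the median over guides, lines run from the lowest to the highest guide, open points were not called, and the dashed line is the median of all genes. The 20 cytosolic enzymes lie between -1.48 and -0.49, and the 16 mitochondrial enzymes between -0.46 and -0.05.

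The deepest cytosolic loss was that of FARSA, the alpha subunit of the phenylalanine enzyme. Its value relative to the T0 mean was -1.32 and -1.42 in the untreated libraries, against 0.16 and -0.16 in the T0 libraries. Untreated libraries lay far below both T0 libraries, although the T0 libraries of FARSA differed more from each other than those of any other member. The L2FC was -1.48 ± 0.76 (n = 4, adjusted p = 0.000335), or 35.8% of T0, and FARSA ranked 37 from the bottom of all genes.

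IARS, which charges isoleucine, followed at -1.37 ± 0.32 (n = 4), with library values of -1.34 and -1.34 in untreated cells and 0.03 and -0.03 at T0. YARS, which charges tyrosine, was at -1.35 ± 0.11 (n = 3), with -1.44 and -1.33 in untreated cells and -0.01 and 0.01 at T0. KARS, which charges lysine, was at -1.33 ± 0.39 (n = 4), with -1.41 and -1.15 in untreated cells and -0.07 and 0.07 at T0. For each of these enzymes the untreated libraries lay below both T0 libraries, as they did for all 20 cytosolic enzymes. NARS, the asparagine enzyme, completed the 5 farthest from 0 at -1.29 ± 0.43 (n = 4), with GARS, the glycine enzyme, beside it at -1.29 ± 0.23 (n = 3). Libraries of the groups were apart in the lower direction for 77.8% of all genes, so this alone does not set the enzymes apart.

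The cytosolic enzymes nearest to 0 were CARS, which charges cysteine, at -0.49 ± 0.43 (n = 4), and HARS, which charges histidine, at -0.59 ± 0.75 (n = 3). CARS had -0.42 and -0.53 in the untreated libraries, against 0.02 and -0.02 at T0. Even so, both lay below every mitochondrial enzyme. The remaining cytosolic enzymes were spread between AARS at -1.20 and RARS at -0.63.

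Guides to the same gene did not act alike. Of the 76 cytosolic guides kept, 55 were lower one by one by the edgeR quasi-likelihood F-test, which is run on scaled counts without the non-targeting correction, against 5.93% of all targeting guides. Of the 63 mitochondrial guides 2 were lower, and of the 12 scaffold guides 1 was. For 18 of the 20 cytosolic enzymes at least 2 guides were lower. The third FARSA guide had 672 and 798 reads in untreated cells and 734 and 611 reads at T0, while the fourth had 142 and 187 reads in untreated cells and 479 and 421 reads at T0. That is an L2FC of 0.01 for one guide and of -1.57 for the other, both to a single gene. DARS, which charges aspartate, had guides between -2.23 and -0.33, and its lowest guide fell to 43 and 24 reads in untreated cells, against 148 and 145 reads at T0. RARS, which charges arginine, ran from -1.35 to 0.14. YARS was the most even, with its 3 guides between -1.40 and -1.19, and AARS, which charges alanine, had its 4 guides between -1.36 and -1.07. The rank of an enzyme within the class therefore carries the spread of its guides, and neighbours in the order overlap.

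Cytosolic guides were scarcer at T0 already. Their median abundance was 10.6 and 10.3 CPM (reads scaled to library size) in the T0 libraries (80 guides), against 14.0 and 14.0 for all targeting guides. Mitochondrial guides had 14.5 and 14.9 (64 guides), scaffold guides 15.2 and 15.3 (12 guides), and non-targeting guides 14.7 and 15.1. The guide plasmid pool was not analysed here, so an early loss of these knockouts and a lower starting share cannot be told apart.

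The phenylalanine enzyme is built from 2 kinds of subunit, and FARSB, the beta subunit, was less depleted than FARSA. FARSB had -0.75 and -0.70 in the untreated libraries, against 0.06 and -0.06 at T0, and an L2FC of -0.73 ± 0.74 (n = 4, adjusted p = 0.000335). That value lies between a low and a high pair of guides. Guides 1 and 4 stood at -1.24 and -1.67, while guides 2 and 3 stood at -0.19 and -0.22. The other 3 FARSA guides lay between -1.57 and -1.46, so the subunits differed in how many of their guides were far below 0.

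The multisynthetase complex holds EPRS, IARS, LARS, QARS, MARS, KARS, RARS and DARS. Knockouts of these 8 enzymes had a median L2FC of -0.76 ± 0.32 (SD between genes, n = 8 genes), against -1.15 ± 0.32 (n = 12 genes) for the other cytosolic enzymes. Library medians were -0.76 and -0.78 for the complex and -1.09 and -1.12 for the rest in untreated cells. Both sets had a wide spread, and the ranges of their genes overlapped, from -1.37 to -0.63 in the complex and from -1.48 to -0.49 outside it. Divided by catalytic fold, the 9 class I enzymes had a median of -0.83 and the 10 class II enzymes a median of -1.17, with ranges that overlapped as well. EPRS joins a class I and a class II domain and was left out of that division.

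The scaffold proteins did not share the depletion of the enzymes they hold. AIMP1 had -0.13 and -0.13 in the untreated libraries, against -0.03 and 0.03 at T0, and an L2FC of -0.14 ± 0.09 (n = 4, adjusted p = 0.0247). AIMP2 had -0.12 and -0.06, against 0.01 and -0.01 at T0, and an L2FC of -0.10 ± 0.06 (n = 4, adjusted p = 0.0971). EEF1E1 had -0.21 and -0.24, against 0.02 and -0.02 at T0, and an L2FC of -0.23 ± 0.36 (n = 4, adjusted p = 0.000335). Untreated libraries were below T0 for all 3, but at a distance close to that of the median gene. AIMP1 turned to 0.04 when set against all targeting guides, and its call was lost without either untreated library (-0.13 each, adjusted p = 0.118 and 0.106) or without the first T0 library (-0.16, adjusted p = 0.0605). The guides of EEF1E1 ranged between -0.72 and 0.17, with the 2 in the middle at -0.24 and -0.23.

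Among mitochondrial enzymes, MARS2, which charges methionine, was the lowest. It had -0.40 and -0.48 in the untreated libraries, against 0.02 and -0.02 at T0, and an L2FC of -0.46 ± 0.05 (n = 4, adjusted p = 0.000335), or 72.7% of T0. Its 4 guides lay between -0.48 and -0.36, closer together than those of any cytosolic enzyme. PARS2, which charges proline, had -0.34 and -0.42 in the untreated libraries, against -0.01 and 0.01 at T0, with an L2FC of -0.40 ± 0.18 (n = 4). WARS2, the tryptophan enzyme, was at -0.37 ± 0.05 (n = 4), and LARS2, the leucine enzyme, at -0.32 ± 0.15 (n = 4). In all 4 the untreated libraries were below both T0 libraries. VARS2, EARS2, FARS2, SARS2, TARS2 and RARS2, for valine, glutamate, phenylalanine, serine, threonine and arginine, were called lower at values between -0.31 for VARS2 and -0.20 for RARS2.

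At the other end, IARS2 and AARS2 were not called. IARS2 had -0.07 and -0.01 in the untreated libraries, against 0.02 and -0.02 at T0, which overlap, and an L2FC of -0.05 ± 0.41 (n = 4, adjusted p = 0.451). Its guides ran from -0.73 to 0.19. AARS2 was at -0.11 ± 0.22 (n = 4, adjusted p = 0.0650). CARS2 (-0.15), HARS2 (-0.17), NARS2 (-0.17) and YARS2 (-0.14) were called lower against non-targeting guides, yet stood at 0.02, 0.00, 0.00 and 0.03 against all targeting guides, where they were not called. CARS2 and NARS2 also lost the call without any 1 of the 4 untreated and T0 libraries (between -0.16 and -0.08). HARS2 lost it without the second untreated (-0.16) or first T0 library (-0.13), YARS2 without the second untreated (-0.10) or second T0 library (-0.11), and TARS2, the threonine enzyme (-0.22), without the first untreated library (-0.14).

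Mitochondrial and cytosolic enzymes for the same amino acid could be compared in 17 pairs, and in every pair the cytosolic knockout was the lower one. This adds nothing to the class ranges. The highest cytosolic value (-0.49) is below the lowest mitochondrial value (-0.46), so any pairing of the classes would give the same count. The pairs show only how the size of the difference varied. The pairs that differed most were IARS with IARS2 (-1.37 against -0.05), FARSA with FARS2 (-1.48 against -0.24), YARS with YARS2 (-1.35 against -0.14), NARS with NARS2 (-1.29 against -0.17) and AARS with AARS2 (-1.20 against -0.11). Those that differed least were EPRS with PARS2 (-0.64 against -0.40) and CARS with CARS2 (-0.49 against -0.15). In 8 of the 17 pairs all cytosolic guides lay below all mitochondrial ones. Pairs that use EPRS or FARS2 share a gene, and HARS and HARS2 are neighbours on their chromosome in the RefSeq annotation.

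**Figure D2:**
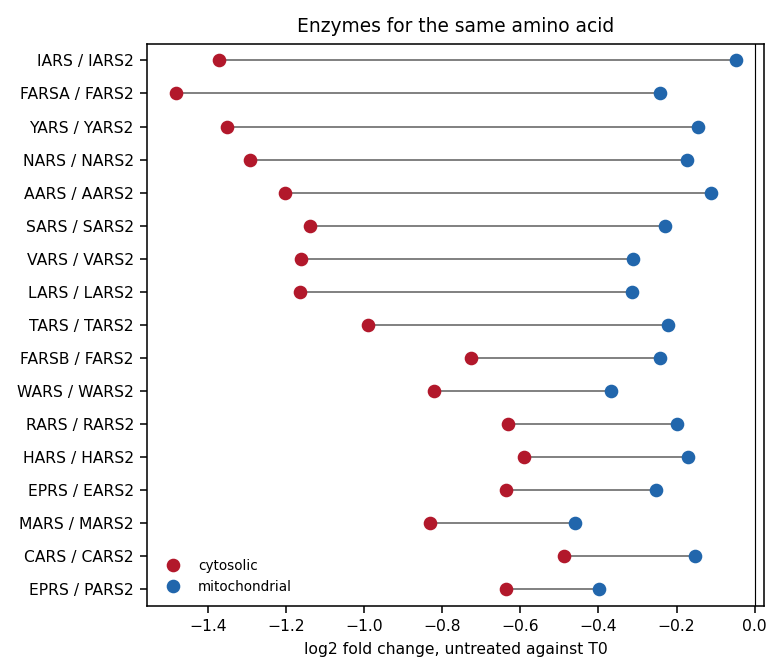
Log2 fold change in untreated cells against T0 (x axis) for enzymes that charge the same amino acid, one row a pair, ordered by the difference. In all 17 pairs the cytosolic enzyme lies left of the mitochondrial one, by between -1.32 for IARS and IARS2 and -0.24 for EPRS and PARS2. The ranges of the classes do not overlap, so any pairing of them would show this order.

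The ribosome of each compartment uses the products of these enzymes. The 54 cytosolic ribosomal proteins tested, of 66 in the table, had a median L2FC of -0.79 ± 0.30 (SD between genes). The 75 mitochondrial ribosomal proteins tested, of 76, had a median of -0.22 ± 0.12. The others kept fewer than 2 guides after the filter on low counts and are missing from these medians. Cytosolic synthetases stood at -1.05 and -1.02 in the untreated libraries, against -0.73 and -0.81 for cytosolic ribosomal proteins. The mitochondrial pair of medians was -0.22 and -0.21 for synthetases and -0.23 and -0.22 for ribosomal proteins. Several cytosolic factors that carry charged tRNA to the ribosome and move it along were depleted too. All 7 of those tested were called lower, with a median of -0.65, led by EEF1A1, which delivers the charged tRNA (-1.20 ± 0.43, n = 3), EEF2, which moves the ribosome (-0.90 ± 0.77, n = 4), and EEF1G (-0.89 ± 0.32, n = 4). With draws from all targeting guides, which called 3.06% of all genes lower, 3 of the 7 were lower. EEF1A2 (-0.12) lay above the median of all genes (-0.17), and EEF1D (-0.23) was near it. Of 17 mitochondrial charging partners and translation factors 13 were lower, with a median of -0.20, a share close to the 66.0% of all genes called lower here, and 1 of the 17 was lower with draws from all targeting guides. TRNT1, which adds the CCA end to tRNA in both compartments, was the lowest of them at -0.83 ± 1.10 (n = 4), followed by QRSL1 (-0.40) and MTFMT (-0.38), which act after charging to make glutaminyl-tRNA and formylmethionyl-tRNA. Of 7 proteins that edit tRNA or resemble synthetases 4 were lower, a smaller share than the 66.0% of all genes, with a median of -0.13, above that of all genes.

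Erlotinib-treated cells were set against untreated cells to see which knockouts differed in abundance under drug. Per the paper, a positive L2FC of this kind can come from a knockout that resists the drug. It can also come from one that grows slowly without drug and responds to the drug like other cells. Which of these applies to the enzymes was not tested, so a rise here means a higher relative abundance only. Knockouts of cytosolic enzymes were more abundant under erlotinib, with a median L2FC of 0.33 ± 0.21 (SD between genes, n = 20 genes), or 126% of untreated, where all genes had a median of 0.00. Of the 20 cytosolic enzymes 14 rose and none fell, against 6.24% of all genes called higher and 4.59% called lower. Of the 16 mitochondrial enzymes 6 rose, with a class median of 0.17 ± 0.10. None of the 3 scaffold proteins was called. With draws from all targeting guides, which called 1.04% of genes higher, the count was 4 cytosolic enzymes (KARS, NARS, SARS and YARS) and no mitochondrial enzyme. By limma, which called 4.88% higher, it was 11 and 3.

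**Figure D3:**
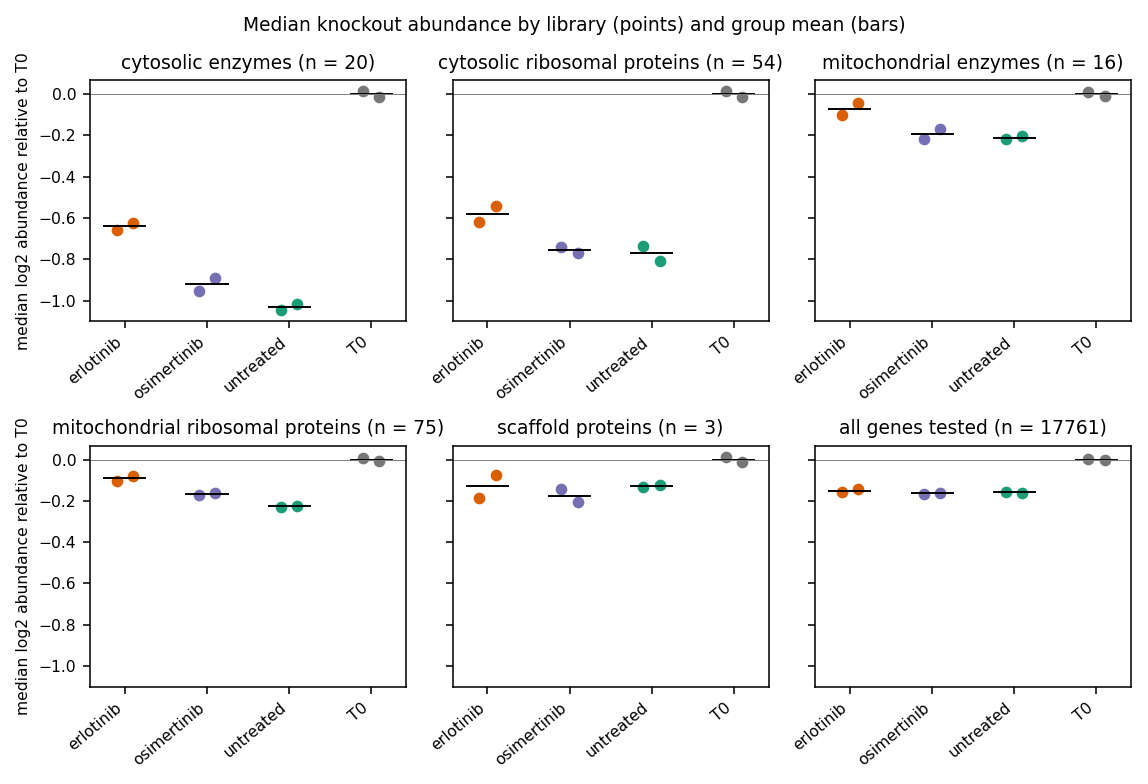
Median log2 abundance of knockouts relative to the T0 mean (y axis, corrected for non-targeting guides) in each of the 8 libraries, for 6 sets of genes. Points are libraries and bars the mean of the 2 libraries of a group. Cytosolic enzymes lie at -0.66 and -0.63 under erlotinib, -0.95 and -0.89 under osimertinib and -1.05 and -1.02 in untreated cells, while the median of all genes is between -0.16 and -0.14 in those 6 libraries.

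YARS knockouts had the largest gain. They stood at -0.68 and -0.65 in the erlotinib libraries, against -1.44 and -1.33 in the untreated libraries, relative to T0. Both erlotinib libraries lay well above both untreated ones, and the L2FC was 0.66 ± 0.12 (n = 3, adjusted p = 0.00177), or 158% of untreated. The third YARS guide had 260 and 302 reads under erlotinib, against 134 and 224 reads in untreated cells. One by one, 12 of the 76 cytosolic guides and 7 of the 63 mitochondrial guides were higher by the quasi-likelihood F-test, against 1.76% of all targeting guides. At least 2 guides were higher for 1 cytosolic enzyme (KARS) and 1 mitochondrial enzyme (PARS2). All guides lay above the non-targeting median for 10 of the 20 cytosolic and 5 of the 16 mitochondrial enzymes.

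KARS had -0.52 and -0.58 under erlotinib, against -1.41 and -1.15 in untreated cells, and an L2FC of 0.64 ± 0.34 (n = 4, adjusted p = 0.00177). NARS had -0.69 and -0.60 under erlotinib, against -1.31 and -1.24 in untreated cells, and an L2FC of 0.56 ± 0.33 (n = 4, adjusted p = 0.00177). SARS, which charges serine, had -0.55 and -0.75 under erlotinib, against -1.12 and -1.11 in untreated cells, and an L2FC of 0.53 ± 0.36 (n = 4, adjusted p = 0.00177). In each the groups were apart. GARS was the fifth, at 0.48 ± 0.23 (n = 3). Its erlotinib libraries were at -0.74 and -0.67, against -1.15 and -1.39 in untreated cells. The other enzymes called were AARS, FARSA, FARSB, HARS, IARS, MARS, QARS, RARS and TARS, with L2FC between 0.23 for FARSB and 0.40 for FARSA. HARS was called from the median over its guides (0.32), but its library values were not higher under erlotinib, at -0.69 and -0.93, against -0.44 and -0.72 in untreated cells. It was the one called cytosolic enzyme whose erlotinib libraries did not both lie above the untreated ones.

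Not every deeply depleted enzyme behaved this way. LARS, which charges leucine, had -1.21 and -1.31 under erlotinib, against -1.12 and -1.17 in untreated cells, and an L2FC of -0.03 ± 0.18 (n = 4, adjusted p = 0.762). It was the only cytosolic enzyme whose erlotinib libraries both lay below the untreated ones, as was the case for 21.6% of all genes, while 14 of the 20 lay above (27.8% of all genes). VARS, which charges valine, had -1.06 and -1.15 under erlotinib, against -1.06 and -1.21 in untreated cells, and an L2FC of -0.08 ± 0.43 (n = 4, adjusted p = 0.442). Those libraries overlap, and the second VARS guide had few reads, with 30 and 21 under erlotinib and 41 and 53 in untreated cells. LARS and VARS had been lost in untreated cells against T0 about as deeply as SARS, at -1.17 ± 0.20 and -1.16 ± 0.38 (n = 4 each). The nearest to 0 besides LARS was WARS, the tryptophan enzyme, at 0.03 ± 0.16 (n = 4). CARS (0.04), DARS (0.14) and EPRS (0.17) were not called either.

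**Figure D4:**
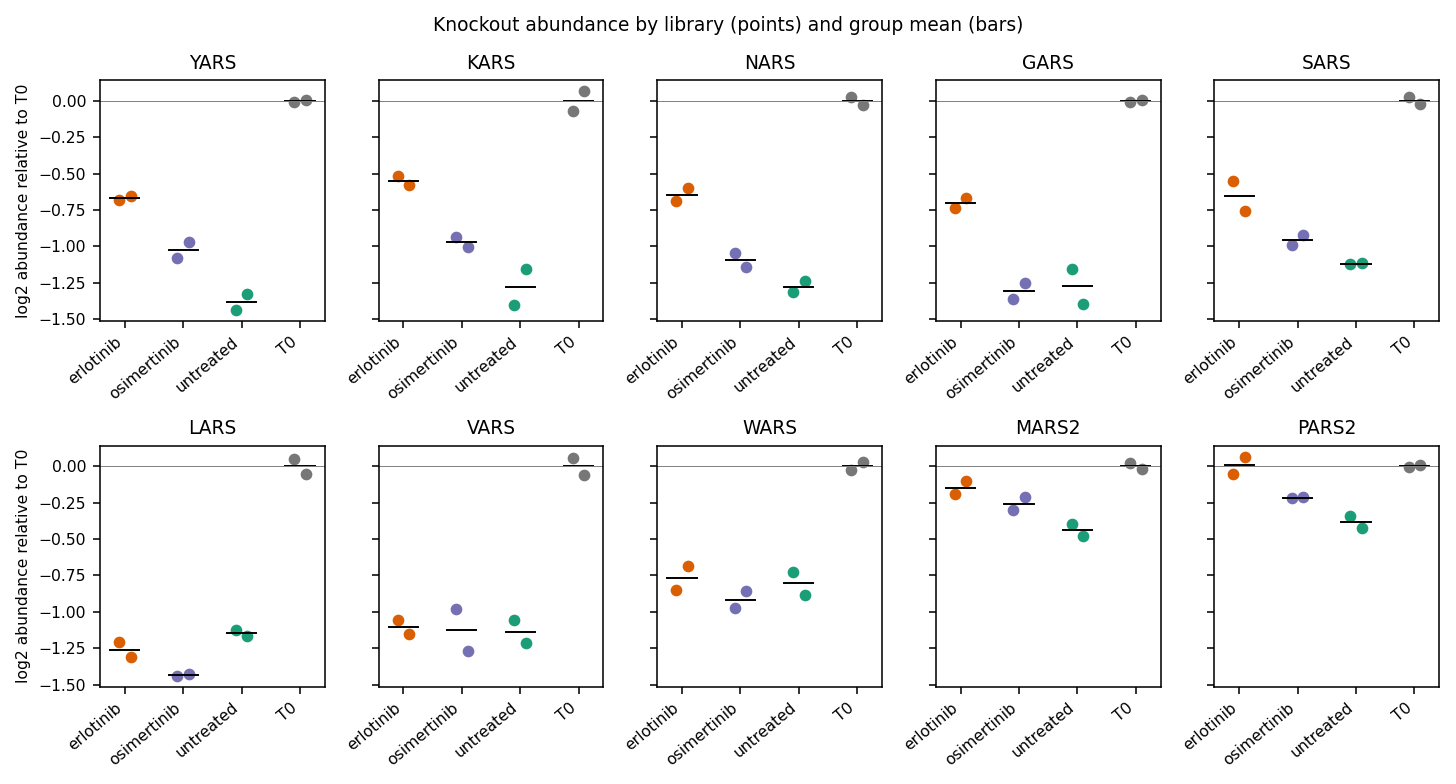
Log2 abundance relative to the T0 mean (y axis, corrected for non-targeting guides) of 8 cytosolic and 2 mitochondrial knockouts in each library, with points for libraries and bars for the mean of the 2 libraries of a group. YARS, KARS, NARS, GARS and SARS are higher in both erlotinib libraries than in both untreated ones, LARS is lower, and VARS and WARS overlap.

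Mitochondrial enzymes moved less. PARS2 had -0.05 and 0.06 under erlotinib, against -0.34 and -0.42 in untreated cells, and an L2FC of 0.37 ± 0.20 (n = 4, adjusted p = 0.00177). MARS2 had -0.19 and -0.10 under erlotinib, against -0.40 and -0.48 in untreated cells, and an L2FC of 0.27 ± 0.12 (n = 4, adjusted p = 0.00177). VARS2, the valine enzyme, was at 0.26 ± 0.11 (n = 4) and CARS2, the cysteine enzyme, at 0.22 ± 0.30 (n = 4). WARS2 (0.20) and FARS2 (0.20) were also called, with adjusted p = 0.0329 and 0.0385. The groups were apart for these 6, but the count is fragile. It was 1 (PARS2) without the second erlotinib library and 3 without the second untreated library, and WARS2 lost its call without any 1 of these libraries (between 0.15 and 0.25). Without those same second libraries the cytosolic count was 10 each time. FARSB, HARS and MARS lost the call in both cases, IARS without the erlotinib library (0.25, adjusted p = 0.0674) and AARS without the untreated one (0.24, adjusted p = 0.0636). IARS2 (-0.01) and YARS2 (0.01) were nearest to 0, and the 8 others not called lay between 0.07 for NARS2 and 0.18 for RARS2.

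Scaffold knockouts gave 0.12 ± 0.15 for AIMP1, 0.09 ± 0.15 for EEF1E1 and -0.06 ± 0.05 for AIMP2 (n = 4 guides each). The counts that follow stand beside 6.24% of all genes called higher and 4.59% called lower. The 8 enzymes of the multisynthetase complex had a median of 0.26 with 5 called higher, and the 12 others a median of 0.34 with 9 called. Of the 10 class II enzymes 9 were called higher, against 5 of the 9 class I enzymes. Cytosolic ribosomal proteins shifted less than the enzymes, with a median of 0.14 and 17 of 54 called higher and 1 lower, and mitochondrial ribosomal proteins had a median of 0.12 with 11 of 75 called higher. Of the 7 cytosolic delivery and elongation factors 3 rose, namely EEF1A1 (0.65 ± 0.33, n = 3), EIF5A (0.38 ± 0.22, n = 2) and EEF2 (0.25 ± 0.28, n = 4). Of the 17 mitochondrial partners QRSL1 and TRNT1 rose, both by 0.29, and none of the 7 editing and synthetase-like proteins was called.

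The kinase that senses uncharged tRNA had a larger gain than any synthetase. EIF2AK4 had 0.85 and 0.97 in the erlotinib libraries, -0.19 and 0.03 in the osimertinib libraries and 0.04 and -0.02 in the untreated libraries, and its L2FC was 0.87 ± 0.12 (n = 4, adjusted p = 0.00177) under erlotinib and -0.01 ± 0.04 (n = 4, adjusted p = 0.953) under osimertinib, both against untreated cells. Between the drugs it was at 0.90 ± 0.13 (n = 4, adjusted p = 0.00818). GCN1L1 was at 0.63 ± 0.32 (n = 3, adjusted p = 0.00177) under erlotinib and -0.16 ± 0.19 (n = 3, adjusted p = 0.325) under osimertinib.

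Osimertinib-treated cells, set against the same untreated libraries, showed little of this. Cytosolic enzymes had a median L2FC of 0.03 ± 0.12 (SD between genes, n = 20 genes) and mitochondrial enzymes one of 0.09 ± 0.14 (n = 16 genes), and the only member called was KARS, against 3.76% of all genes higher and 4.1% lower. KARS had -0.94 and -1.004 under osimertinib, against -1.41 and -1.15 in untreated cells, and an L2FC of 0.25 ± 0.23 (n = 4, adjusted p = 0.0451). The groups were apart, but the call was lost without either osimertinib library (0.22 and 0.29) or without the first untreated library (0.15). YARS was next, at 0.21 ± 0.17 (n = 3, adjusted p = 0.135). It was at -1.08 and -0.97 under osimertinib, against -1.44 and -1.33 in untreated cells.

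GARS (-0.20 ± 0.40, n = 3), LARS (-0.20 ± 0.34, n = 4) and NARS (0.15 ± 0.29, n = 4) were the others farthest from 0 among cytosolic enzymes, and none was called. FARSA (0.00) and FARSB (0.01) were the nearest. Of the mitochondrial enzymes PARS2 (0.24), WARS2 (0.22), YARS2 (-0.21) and RARS2 (0.17) were the farthest, with adjusted p = 0.0662, 0.0777, 0.101 and 0.189, and SARS2 and HARS2 the nearest at 0.02 and 0.03. By limma, which called 5.31% of genes higher and 4.83% lower, KARS and YARS were higher and YARS2 lower. Osimertinib libraries were both above the untreated ones for 5 cytosolic and 7 mitochondrial enzymes, against 24.7% of all genes, and both below for 3 of each class, against 25.8%. Scaffold values were 0.08 for AIMP1, 0.04 for EEF1E1 and -0.08 for AIMP2. No gene was called in the lists of delivery and elongation factors, mitochondrial partners or editing proteins.

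**Figure D5:**
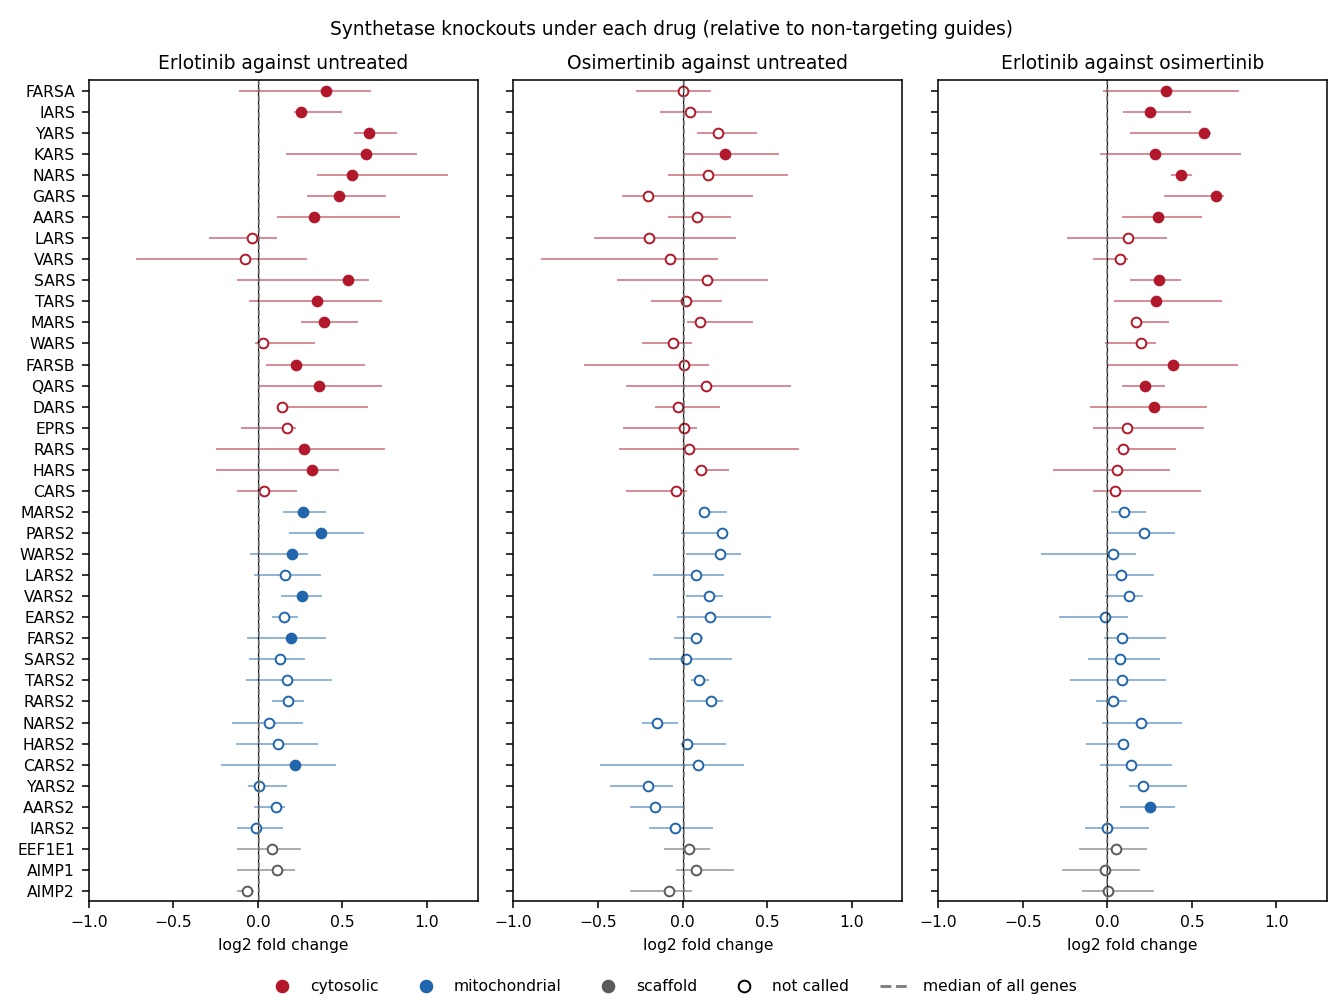
Log2 fold change of each knockout (x axis, relative to non-targeting guides) in 3 comparisons, one row a gene in the order of its loss in untreated cells. Points are the median over guides, lines the range of guides, and open points were not called. Under erlotinib 14 cytosolic and 6 mitochondrial enzymes are called higher than in untreated cells, under osimertinib KARS alone is, and between the drugs 12 cytosolic enzymes and AARS2 are called.

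Each drug was also set against T0. All 20 cytosolic enzymes remained below T0 under erlotinib, with a median of -0.64 ± 0.25 (SD between genes), or 64.0% of T0, where 50.1% of all genes were called lower. They did so under osimertinib as well, with a median of -0.91 ± 0.30, or 53.2% of T0, where 43.6% of all genes were called lower. With draws from all targeting guides the counts were 5 under erlotinib, where 2.41% of genes were called lower, and 12 under osimertinib, where 3.21% were. LARS was the lowest member under both drugs, at -1.30 ± 0.24 under erlotinib and -1.48 ± 0.48 under osimertinib (n = 4 each). VARS (-1.10), IARS (-0.99), FARSA (-0.90) and AARS (-0.84) followed under erlotinib, and IARS (-1.41), FARSA (-1.38), GARS (-1.31) and NARS (-1.12) under osimertinib. The nearest to 0 were QARS (-0.32) and RARS (-0.32) under erlotinib and RARS (-0.42) and HARS (-0.50) under osimertinib. A gene value is a median over guides, so values of different comparisons do not add up, as in HARS, which was at -0.80 under erlotinib and -0.59 in untreated cells, both against T0, but at 0.32 under erlotinib against untreated cells.

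Mitochondrial enzymes were close to T0 under erlotinib, with a median of -0.06 ± 0.06, above the -0.14 of all genes. Against 50.1% of all genes called lower, the class had a single call, WARS2 at -0.17 ± 0.12 (n = 4, adjusted p = 0.0147). YARS2 (-0.12), LARS2 (-0.11) and MARS2 (-0.11) followed without a call, and IARS2 (0.01) and PARS2 (-0.01) were nearest to 0. Under osimertinib the median was -0.18 ± 0.09, near the -0.14 of all genes. There 9 enzymes were called lower, beside 43.6% of all genes, with YARS2 (-0.37), NARS2 (-0.30), MARS2 (-0.26) and PARS2 (-0.25) the farthest and EARS2 (-0.05) and HARS2 (-0.06) the nearest. That count was 4 without the first T0 library, where FARS2, LARS2, PARS2, VARS2 and WARS2 lost the call, and 5 without the first osimertinib library, where FARS2, SARS2, VARS2 and WARS2 did. SARS2, VARS2 and WARS2 also lost it without the second T0 library, and VARS2 without the second osimertinib library. No mitochondrial enzyme or scaffold protein was called under either drug with draws from all targeting guides. WARS2 lost its erlotinib call without the second erlotinib library (-0.12) or the first T0 library (-0.17). Of the scaffold proteins, AIMP2 and EEF1E1 were called lower than T0 under both drugs, at -0.15 and -0.25 under erlotinib and -0.16 and -0.18 under osimertinib. AIMP2 thus lay close to the median of all genes, which was -0.14 under each drug. The rule called 50.1% of all genes lower under erlotinib and 43.6% under osimertinib. The AIMP2 call was lost without the first erlotinib library (-0.07) or the first T0 library (-0.14) under erlotinib, and under osimertinib without either osimertinib library (-0.20 and -0.14) or the first T0 library (-0.14). The EEF1E1 call under osimertinib was lost without the first T0 library (-0.14). AIMP1 was at -0.02 under erlotinib and -0.01 under osimertinib.

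The drugs were then compared directly, at the doses used. All 20 cytosolic enzymes had a positive L2FC for erlotinib over osimertinib, with a median of 0.26 ± 0.16 (SD between genes), or 120% of osimertinib. Of the 20, 12 were called higher, against 2.43% of all genes higher and 1.02% lower. The 16 mitochondrial enzymes had a median of 0.09 ± 0.08 with 1 call, and no scaffold protein was called. Draws from all targeting guides, which called 0.214% of genes higher, kept NARS alone. Limma, which called 1.13% higher, called 7 cytosolic enzymes. By the quasi-likelihood F-test on single guides, no cytosolic enzyme had 2 or more guides higher. In 11 of the 20, all guides lay above the non-targeting median.

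GARS differed most between the drugs. It stood at -0.74 and -0.67 in the erlotinib libraries, against -1.36 and -1.25 in the osimertinib libraries, and the L2FC was 0.64 ± 0.19 (n = 3, adjusted p = 0.00818). The groups were far apart, and only 3 of all genes tested ranked above it. YARS was at 0.57 ± 0.26 (n = 3, adjusted p = 0.00818), with -0.68 and -0.65 under erlotinib and -1.08 and -0.97 under osimertinib, but at 0.31 without the first osimertinib library, where its call was lost.

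NARS was at 0.43 ± 0.05 (n = 4, adjusted p = 0.00818), with all 4 guides between 0.38 and 0.50. FARSB (0.39 ± 0.32, n = 4) and FARSA (0.35 ± 0.35, n = 4) were both called, so the subunits of the phenylalanine enzyme moved the same way. AARS, DARS, IARS, KARS, QARS, SARS and TARS, the threonine enzyme, were called at values between 0.22 for QARS and 0.31 for SARS. The count fell to 4 (AARS, FARSA, GARS and NARS) without the first osimertinib library, to 7 without the second and to 8 without the first erlotinib library.

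The cytosolic enzymes nearest to 0 were CARS (0.04 ± 0.29, n = 4) and HARS (0.05 ± 0.34, n = 3). HARS was the one cytosolic enzyme with both erlotinib libraries below both osimertinib libraries, at -0.69 and -0.93 under erlotinib against -0.46 and -0.57 under osimertinib (15.8% of all genes were so), although the median over its 3 guides was above 0. In 16 of the 20 the erlotinib libraries were both above, against 24.4% of all genes. The mitochondrial call was AARS2, at 0.25 ± 0.16 (n = 4, adjusted p = 0.0142), with 0.05 and -0.13 under erlotinib and -0.35 and -0.05 under osimertinib. Those libraries overlap, and the value was 0.12 without the first osimertinib library and 0.17 without the first erlotinib library, neither of them called. PARS2 (0.22), YARS2 (0.21) and NARS2 (0.20) followed without a call, while IARS2 (-0.0045) and EARS2 (-0.01) were nearest to 0. Scaffold values were 0.05 for EEF1E1, 0.01 for AIMP2 and -0.01 for AIMP1. Of the delivery and elongation factors EEF2 was called higher under erlotinib than under osimertinib (0.30 ± 0.39, n = 4), and of the mitochondrial partners TRNT1 was (0.70 ± 0.48, n = 4).

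The gap between cytosolic and mitochondrial enzymes, taken within each library as the difference of the class medians, was -0.55 and -0.59 under erlotinib, -0.73 and -0.72 under osimertinib and -0.83 and -0.81 in untreated cells. It was 0.00 in both T0 libraries. No library of a group overlapped with one of another group, and on this measure both drugs left a narrower gap than untreated cells, with erlotinib the narrowest. For osimertinib the gene values did not show a narrower gap. Their class medians against untreated cells were 0.03 for cytosolic and 0.09 for mitochondrial enzymes, so that part depends on how the classes are summarized. An exact permutation of library labels gave p = 0.333 for the gap in each comparison. That is the smallest p possible with 2 libraries a group, so this test could not have called a difference. The comparisons with untreated cells share the untreated libraries and those with T0 share the T0 libraries, so their counts are not independent of each other.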

How the data were processed

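Counts of reads per guide for 8 libraries were used as the authors deposited them, raw and unnormalized. Per the methods, guides were recovered from genomic DNA by 2 rounds of PCR, and the reads were mapped to the guide library. Molecular identifiers are not mentioned in the sources used here, so precision from counts covers counting error only. The aligner is named as Bowtie2 in the methods but as Bowtie 1.3.1 among the tools that the submitters listed. Of 71090 guides 142 were non-targeting. Spreadsheet damage to 50 gene names (now amounts of money) was undone for all but 1, whose 4 guides were dropped. No library was a copy of its partner (chi-square per degree of freedom between 2.67 and 5.08).

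The 5% of guides with the fewest reads (mean under 46 after scaling) were dropped, and 67531 remained, 138 of them non-targeting. A quasi-likelihood model with TMM scaling was fitted with edgeR 4.0.16 (R 4.3.3) to the 8 libraries together, with a common dispersion of 0.00537 and 4 residual degrees of freedom. A gene's value is the median over at least 2 guides minus the median of non-targeting guides. Its two-sided empirical p came from 10000 random sets of equally many non-targeting guides and was adjusted by Benjamini-Hochberg over 17761 genes (threshold 0.05). The smallest p possible is 1e-04, which sets the lowest adjusted p of each comparison. This p measures the spread between guides, not between cultures. Library values are medians over guides of log2 CPM (prior count 1), less the mean of the T0 libraries and the median of non-targeting guides. On simulated counts for untreated against T0, all genes changed by 0.5 or 1 on the log2 scale were called, as were 1.02% of 17566 unchanged genes. The simulation gave all guides of a gene the same change, used the common dispersion and gave non-targeting guides no offset. It checks the computation, and its rates are not error rates of the real calls, where guides disagree and non-targeting guides are offset.

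Alternatives were DESeq2 1.42.0, no filter, a 10% filter, the mean over guides, draws from all targeting guides, limma 3.58.1, the replicate number as a block, and each library left out. The members and lists were chosen with earlier results of these data known, so counts are set beside those over all genes and no list was tested. Named with values in each comparison were the 5 cytosolic and 4 mitochondrial enzymes farthest from 0, the 2 of each nearest to 0, the scaffold proteins, both phenylalanine subunits, the 5 most and 2 least different pairs, members whose call changed under an alternative or differed between the drugs, and up to 3 called genes of each partner list. Guide sequences and an additional osimertinib dose were not analysed here.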

Additional observations from a re-analysis of the deposited data

Results flagged for a closer look

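The response to erlotinib and the response to osimertinib differed for 13 genes of the set, by the direct test of erlotinib over osimertinib (adjusted empirical p from the edgeR fit, 0.05). Cytosolic enzymes made up 12 of them. Of all genes tested, 2.43% were called higher and 1.02% lower. Draws from all targeting guides, which called 0.214% of genes higher, kept 1 of the cytosolic enzymes, NARS. The L2FC was 0.64 for GARS, 0.57 for YARS, 0.43 for NARS, 0.39 for FARSB, 0.35 for FARSA, 0.31 for SARS, 0.30 for AARS, 0.29 for TARS, 0.28 for KARS, 0.28 for DARS, 0.25 for IARS and 0.22 for QARS. Both erlotinib libraries lay above both osimertinib libraries for all of these but AARS, where an erlotinib library (-0.89) was below an osimertinib library (-0.82). AARS2 was the mitochondrial enzyme that differed, at 0.25, and its libraries overlapped. Its value was 0.12 without the first osimertinib library and 0.17 without the first erlotinib library. Several of the cytosolic calls also depended on a single library, as described for the direct comparison above. The doses of the drugs differ, and each group had 2 libraries, so no search for a library far from its group could be made.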

How the results depend on the processing

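Of 124 calls of member genes over the 6 comparisons, 124 held with DESeq2, 123 without a filter, 115 with the 10% filter, 115 with the mean over guides, 105 with limma and 34 with draws from all targeting guides. With the 10% filter VARS had too few guides to be tested. With draws from all targeting guides, untreated against T0 gave 12 cytosolic and 0 mitochondrial enzymes lower, erlotinib against T0 gave 5 and 0, osimertinib against T0 gave 12 and 0, erlotinib against untreated gave 4 and 0 higher, osimertinib against untreated gave 0 cytosolic enzymes higher, and erlotinib against osimertinib gave 1 and 0. In untreated cells against T0 the direction also turned for CARS2 (0.0212), HARS2 (0.0048), NARS2 (0.0016), YARS2 (0.0295) and AIMP1 (0.0382), none of them called. With limma, erlotinib against untreated gave 3 mitochondrial enzymes higher, osimertinib against untreated 2 cytosolic, erlotinib against T0 0 mitochondrial lower, and erlotinib against osimertinib 7 cytosolic and 0 mitochondrial. Osimertinib against untreated gave 1 mitochondrial enzyme higher without a filter, 2 with the 10% filter, and 0 cytosolic with the mean. Erlotinib against osimertinib gave 3 mitochondrial enzymes without a filter, 3 with the 10% filter and 2 with the mean, which also gave 2 lower for erlotinib against T0. Apart from the loss of VARS under the filter, the cause of these differences was not tested.

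With each library left out in turn, between 109 and 118 of the 124 calls held, and a group left with 1 library is assumed to vary like the others. Counts in untreated against T0 were 20 cytosolic and between 10 and 14 mitochondrial enzymes. In erlotinib against untreated they were between 10 and 16 and between 1 and 8, and in osimertinib against untreated between 0 and 2 and between 0 and 1. In erlotinib against T0 they were 20 and between 0 and 2, in osimertinib against T0 20 and between 4 and 9, and in erlotinib against osimertinib between 4 and 12 and between 0 and 2.

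The replicate numbers did not pair the libraries. Deviations of same-numbered libraries from their group means correlated between -0.003 and 0.0101 across guides. With the replicate number as a block all 124 calls held, the counts for untreated against T0 were 20 and 14, and 1 call was gained (AARS2, lower in osimertinib than at T0, for a count of 10).

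With 2 libraries a group and 3 or 4 guides a gene, the value of a gene whose guides disagree depends on which guides are counted. Members of this kind include FARSA, FARSB, DARS, RARS, HARS, TARS, QARS and EPRS, and TRNT1 is one among the partner genes. Kept guides of cytosolic enzymes go down to 21 reads in a library, where a further loss is measured with little precision.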
